A study of Rattus norvegicus with 20 samples.

Results

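The genes described are Nfe2l2, Keap1, Nqo1, Srxn1, Txnrd1, Prdx1, Pgd, Taldo1 and Me1, the transcription factor NRF2, its inhibitor, and enzymes of thioredoxin and NADPH metabolism. They were chosen by gene symbol, and they are 9 of the 34681 rows of the deposited table, with 1 row each. All 9 were above the minimum set for low values and so were among the 15954 rows tested. Rats with trauma-induced acute kidney injury were studied by stranded mRNA sequencing of snap-frozen kidney. By disease label there were 3 RM-HS, 6 RM, 5 HS and 6 Sham libraries, 20 in all, and the abbreviations RM and HS are not expanded in any label. For RM the design text lists 5 libraries (19 in all), yet 6 bear the label, and these 6 were used. The sources used here name no strain, sex, age, dose or sampling time, and none states that libraries came from different animals, so each p-value covers the spread among libraries, some of which could be technical.

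NRF2, encoded by Nfe2l2, is a transcription factor that binds antioxidant response elements together with small MAF proteins. KEAP1 holds it in the cytoplasm and passes it to a ubiquitin ligase for degradation, until electrophiles or oxidants modify KEAP1 and NRF2 builds up. NRF2 targets include the thioredoxin branch of peroxide removal (peroxiredoxin, sulfiredoxin and thioredoxin reductase), quinone reduction, and enzymes that make the NADPH on which these reactions run. In the kidney the pathway is known as a defence of tubular cells against oxidants, haem and toxicants. Since NRF2 is mainly controlled at the level of the protein, the level of its mRNA is not a measure of its activity.

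Levels are DESeq2-normalized read counts as deposited, which are not corrected for gene length, so each gene is compared with itself between groups and not with the other genes. Each library held 45047179 to 109940948 reads, of which 42.2% to 54.7% lay on mitochondrial rows. Differences are on the log2(value + 1) scale, given as log2 difference ± SE from limma, and a gene was said to pass where its Benjamini-Hochberg adjusted p over all rows tested was under 0.05. Markers of proximal tubule, thick ascending limb, collecting duct and podocytes had reads in every group, as kidney should. Within Sham, the summed level of 7 early proximal tubule markers was 146057 in Sham 1 and 162846 in Sham 6, but 41643 to 75039 in Sham 2, 3, 4 and 5, and it was 190535 to 275627 in RM-HS, 164821 to 243787 in RM and 142982 to 185308 in HS. Of these 7 markers 7 were higher than in Sham in RM-HS, 7 in RM and 5 in HS. The 5 late proximal tubule markers were mixed, with 1 higher and 2 lower in RM-HS, 2 and 2 in RM, and 1 and 2 in HS. Their summed median was 51093 in RM-HS, 56579 in RM, 52738 in HS and 77829 in Sham. Of 6 thick ascending limb markers 5 were lower in RM-HS, 6 in RM and 6 in HS, and all 6 principal cell markers were lower in each of the 3 groups. Of 6 podocyte markers 2 were higher in RM-HS, 6 in RM and 5 in HS. Their summed level was also split within Sham, at 9245 in Sham 1 and 9057 in Sham 6 but 2128 to 5785 in Sham 2, 3, 4 and 5. In the injured groups it was 8799 to 10329 in RM-HS, 9337 to 12212 in RM and 8500 to 10705 in HS. The part of these markers in the differences of the 9 genes was not tested. Results against Sham are therefore also given with Sham 1 and Sham 6 alone where that changes a call. In these bulk samples, fewer cells of a type and less RNA per cell cannot be told apart.

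The strongest differences lay in Srxn1 and Txnrd1, which were higher than in Sham in all of the RM-HS, RM and HS groups. Against Sham, 7 of the 9 genes rose and 1 fell in RM-HS, where 42.3% of all rows passed (21.3% higher and 21.0% lower). In RM 7 of the 9 rose and none fell, where 26.2% of all rows rose and 26.8% fell. In HS 3 rose and 1 fell, against 46.4% of all rows (23.3% higher and 23.2% lower). The median log2 difference of the 9 genes was 0.68 in RM-HS, 1.04 in RM and 0.09 in HS, beside -0.03, -0.04 and -0.03 over all rows tested. With Sham 1 and Sham 6 alone as controls, 6 of the 9 passed in RM-HS, 8 in RM and 2 in HS. Without RM-HS 1 the count in RM-HS was 5. Upper quartile scaling moved the median of all rows by -0.13 in RM-HS, -0.14 in RM and -0.12 in HS, and with it 5 of the 9 rose and 1 fell in RM-HS, 6 of the 9 rose and 0 fell in RM, and 2 of the 9 rose and 3 fell in HS. In HS, Nfe2l2 then did not pass, and Keap1 (-0.25, limma adjusted p = 0.042) and Taldo1 (-0.21, limma adjusted p = 0.049) fell beside Me1. Over all rows it gave 2586 rises and 4413 falls in RM-HS (against 3395 rises and 3354 falls with the authors' scaling), 3249 rises and 5529 falls in RM (against 4178 rises and 4277 falls) and 2937 rises and 4695 falls in HS (against 3712 rises and 3698 falls).

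**Figure D1:**
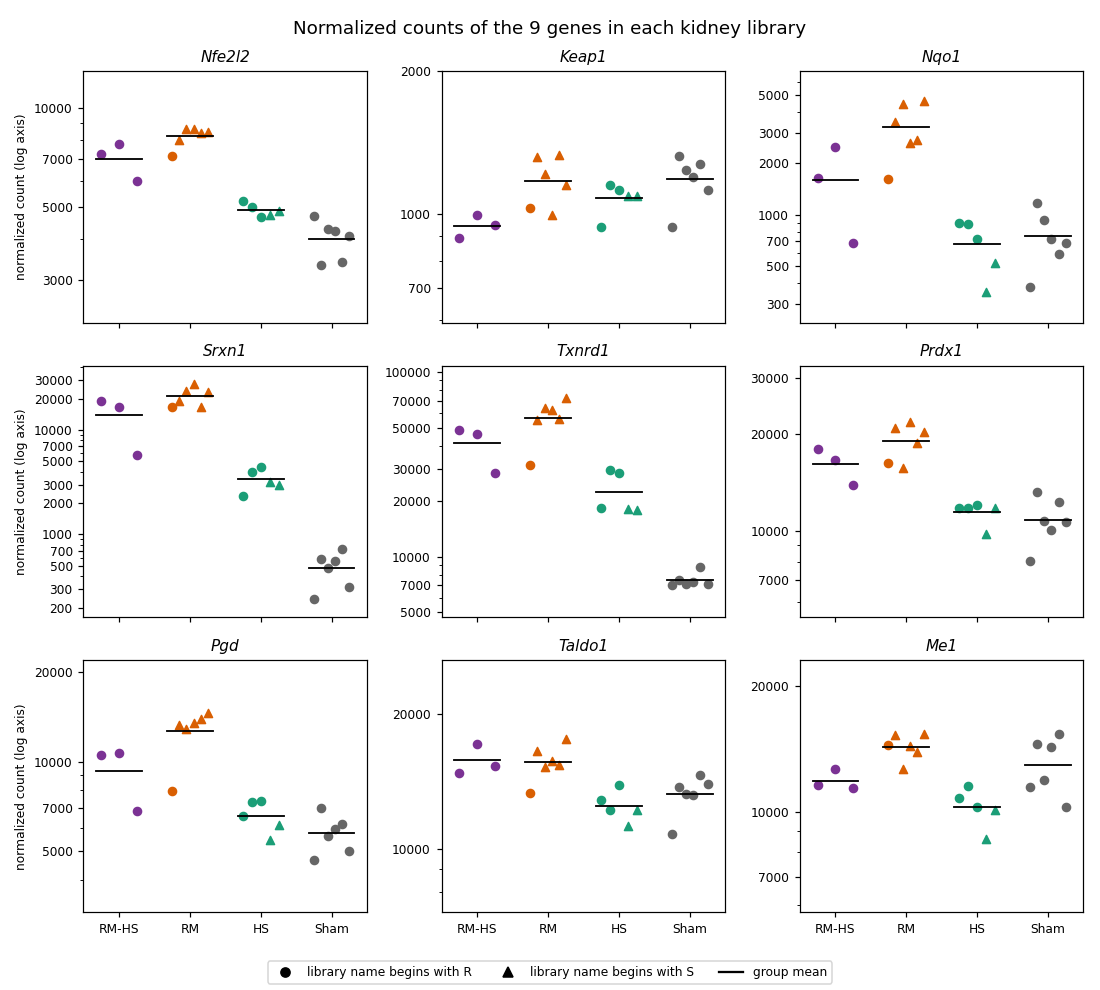
Normalized counts (log axis) of each gene in every library, by group, with the group mean as a line and the symbol showing the first letter of the library name. For Srxn1 all RM-HS, RM and HS libraries (2326 or more) lie above all Sham libraries (719 or less), whereas for Keap1 and Me1 the injured groups overlap Sham.

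Nfe2l2 (GSRG0020430, rn6 chromosome 3, 62497565 to 62525035), which encodes NRF2 itself, rose in all 3 injured groups, by amounts small beside those of Srxn1. It stood at 7273, 7781 and 6013 in the RM-HS libraries, and at 7132 to 8663 (median 8438) in RM. The HS libraries had 5233, 4989, 4672, 4726 and 4882, and Sham had 3344 to 4694 (median 4155). Every RM-HS and RM library lay above every Sham library, while the lowest HS library lay below the highest Sham library. Over all rows, groups that did not overlap with the injured group higher made up 16.5% of rows for RM-HS, 13.3% for RM and 13.7% for HS. The log2 difference from Sham was 0.81 ± 0.11 (limma adjusted p = 7.5e-06) in RM-HS, 1.04 ± 0.09 (limma adjusted p = 1.2e-08) in RM and 0.30 ± 0.09 (limma adjusted p = 0.0099) in HS. The HS call was lost when Sham 1 and Sham 6 were the controls (0.16, limma adjusted p = 0.28) and under upper quartile scaling (0.18, limma adjusted p = 0.11).

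Keap1 (GSRG0030732, rn6 chromosome 8, 22250518 to 22259779), the adaptor that marks NRF2 for degradation, had the smallest range of group means relative to its within-group spread. Its values were 891, 996 and 952 in RM-HS and 996 to 1334 (median 1183) in RM. In HS they were 943, 1153, 1124, 1092 and 1095, and in Sham 939.9 to 1325 (median 1219.7). The RM-HS libraries overlapped only the lowest Sham library, Sham 1, whereas RM and HS lay within or near the Sham range. Keap1 fell in RM-HS, by 0.32 ± 0.11 on the log2 scale (limma adjusted p = 0.032), and this call was lost when Sham 1 and Sham 6 were the controls (-0.12, limma adjusted p = 0.56) and on leaving out RM-HS 1, RM-HS 3, Sham 2, Sham 3 or Sham 5 (limma adjusted p = 0.056 to 0.13). It did not pass in RM (-0.01 ± 0.09, limma adjusted p = 0.93) or in HS (-0.13 ± 0.10, limma adjusted p = 0.31), with 95% confidence intervals of -0.21 to 0.18 and -0.33 to 0.08.

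Srxn1 (GSRG0019950, rn6 chromosome 3, 147603969 to 147632803) encodes sulfiredoxin, which reactivates peroxiredoxins that peroxide has over-oxidized. It had 19066, 16528 and 5719 in the RM-HS libraries, and 16421 to 27522 (median 20906) in RM. The HS libraries had 2326, 3947, 4462, 3144 and 2946, and Sham had 242 to 719 (median 519.6). All RM-HS, RM and HS libraries stood above the highest Sham library, and RM-HS 3 stood apart from the other RM-HS libraries at 5719. The level was 26.9 times that of Sham in RM-HS, 45.6 times in RM and 7.24 times in HS, on the log2(value + 1) scale. As log2 differences these were 4.75 ± 0.34 (limma adjusted p = 7.6e-09), 5.51 ± 0.28 (limma adjusted p = 2.2e-11) and 2.86 ± 0.29 (limma adjusted p = 5.8e-07). Within Sham the gene was lower in Sham 1 and Sham 6 (242 and 315) than in Sham 2, 3, 4 and 5 (477 to 719), and against Sham 1 and Sham 6 alone the differences were 5.46, 6.22 and 3.57 (limma adjusted p = 2.4e-07, 2.5e-08 and 1.9e-05).

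Promoter windows are shown for Srxn1, Prdx1 and Me1, because these 3 of the 9 genes hold the AP-1 letters TGANTCA, and for Nqo1 as a gene that rose in RM and holds neither motif searched. The sequences are RefSeq's, from 250 bases before to 50 after the annotated start, in the GRCr8 build, 5′ to 3′ on the strand of the gene, at chr3:161064562-161064861, plus strand for Srxn1, chr5:135383656-135383955, plus strand for Prdx1, chr8:96540195-96540494, minus strand for Me1 and chr19:52220218-52220517, minus strand for Nqo1. Capitals mark each match to TGANTCA or to the antioxidant response element core TGACNNNGC, searched on both strands.
Srxn1: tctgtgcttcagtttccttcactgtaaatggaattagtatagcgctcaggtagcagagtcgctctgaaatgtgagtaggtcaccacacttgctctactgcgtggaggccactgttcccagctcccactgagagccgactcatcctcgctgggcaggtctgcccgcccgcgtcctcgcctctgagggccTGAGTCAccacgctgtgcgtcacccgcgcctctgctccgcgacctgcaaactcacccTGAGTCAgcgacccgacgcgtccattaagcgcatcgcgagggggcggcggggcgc
Prdx1: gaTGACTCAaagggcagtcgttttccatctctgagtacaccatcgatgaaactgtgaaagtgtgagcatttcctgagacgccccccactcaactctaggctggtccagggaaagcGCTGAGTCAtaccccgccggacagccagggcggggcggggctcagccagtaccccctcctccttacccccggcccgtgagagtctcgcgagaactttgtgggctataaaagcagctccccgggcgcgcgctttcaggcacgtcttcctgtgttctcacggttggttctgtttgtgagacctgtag
Me1: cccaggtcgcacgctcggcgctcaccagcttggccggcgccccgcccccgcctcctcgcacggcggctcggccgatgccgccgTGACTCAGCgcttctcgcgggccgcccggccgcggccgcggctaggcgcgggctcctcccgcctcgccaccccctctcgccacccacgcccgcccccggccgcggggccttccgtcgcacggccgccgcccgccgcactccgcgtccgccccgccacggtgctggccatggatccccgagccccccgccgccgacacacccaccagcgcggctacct
Nqo1: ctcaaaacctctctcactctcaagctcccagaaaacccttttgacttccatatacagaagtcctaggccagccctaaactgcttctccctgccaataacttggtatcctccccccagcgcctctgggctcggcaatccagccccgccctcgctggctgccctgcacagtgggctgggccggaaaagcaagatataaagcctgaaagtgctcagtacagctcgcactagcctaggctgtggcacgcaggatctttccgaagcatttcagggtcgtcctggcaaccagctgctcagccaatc
Srxn1 holds 2 copies of TGAGTCA, which begin at bases 189 and 246 of its window. The copy at base 246 is followed by gc, so this stretch differs from TGACNNNGC in 1 letter and was not counted. Looser forms of the core were not searched. Prdx1 holds TGANTCA at base 3 and again inside a match to the core on the opposite strand that begins at base 116. Me1 holds 1 stretch, from base 84, that matches both motifs with overlapping letters. RefSeq gives all 9 genes at least 1 window and Txnrd1 a pair, which makes 10 windows. The core was found in 4 of the 10, those of Nfe2l2, Prdx1, Me1 and the second window of Txnrd1, against 12.1% of all 33469 windows of the table. TGANTCA was found in 3 of the 10, against 7.33% of all windows. A match is a stretch of letters and not a measured binding site. Sequence outside these windows was not searched, so a window without a match, as for Nqo1, does not show that the gene lacks the motif.

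Txnrd1 (GSRG0028663, rn6 chromosome 7, 26946125 to 27023895) encodes the cytosolic thioredoxin reductase, a selenoprotein that uses NADPH to keep thioredoxin reduced. The RM-HS libraries had 48711, 45973 and 28494, and RM had 31253 to 72169 (median 59104). In HS the values were 18429, 29629, 28346, 18210.2 and 17935, against 7055 to 8796 (median 7209) in Sham. Sham was narrow, and every injured library was at least at 17935, above the highest Sham library. The log2 difference from Sham was 2.42 ± 0.22 (limma adjusted p = 1.8e-07) in RM-HS, 2.88 ± 0.18 (limma adjusted p = 4.4e-10) in RM and 1.56 ± 0.19 (limma adjusted p = 3.9e-06) in HS, or 5.36, 7.36 and 2.94 times the Sham level. Both Srxn1 and Txnrd1 passed against Sham in all 3 injured groups under each of the 33 alternative settings.

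Prdx1 (GSRG0024252, rn6 chromosome 5, 135536391 to 135551990) encodes a cytosolic peroxiredoxin, which removes peroxide and is then reduced by thioredoxin. It stood at 18055, 16660.5 and 13909 in RM-HS and at 15746 to 21893 (median 19565) in RM. HS had 11792, 11763, 11996, 9749 and 11779, and Sham had 8029.9 to 13187 (median 10699). RM-HS and RM lay wholly above Sham, and all 5 HS libraries lay within the range of Sham. The log2 difference was 0.59 ± 0.14 (limma adjusted p = 0.0019) in RM-HS and 0.82 ± 0.11 (limma adjusted p = 5.7e-06) in RM. In HS it was 0.09 ± 0.12 (limma adjusted p = 0.56), with a 95% confidence interval of -0.16 to 0.34. RefSeq lists 7 pseudogenes named for Prdx1, and whether they affected the reads assigned to it was not tested.

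Nqo1 (GSRG0014575, rn6 chromosome 19, 38422210 to 38437163), a quinone reductase and a commonly used readout of NRF2, was the most variable of the 9 within groups, with a pooled within-group SD of 0.63 log2 units, against 0.13 for Taldo1 at the other end. It had 1654, 2485 and 688 in RM-HS, and 1618 to 4644 (median 3127) in RM. The HS libraries had 896, 882, 727, 353 and 525, and Sham had 381 to 1182 (median 705). RM lay wholly above Sham, RM-HS 3 lay within the Sham range, and the lowest HS library lay below every Sham library. Nqo1 rose in RM, by 2.12 ± 0.33 (limma adjusted p = 2.1e-05). In RM-HS it rose by 1.0 ± 0.40 with limma adjusted p = 0.049, a call that 20 of 33 alternative settings did not give, 14 of them omissions of 1 library. Of these, leaving out RM-HS 2 gave the smallest difference (0.60, limma adjusted p = 0.3). It did not pass in HS (-0.14 ± 0.34, limma adjusted p = 0.76, 95% confidence interval -0.86 to 0.57).

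Pgd (GSRG0038136, rn6 chromosome 5, 165966128 to 165982327) encodes 6-phosphogluconate dehydrogenase, which makes NADPH in the oxidative part of the pentose phosphate pathway. It stood at 10517, 10651 and 6815 in RM-HS and at 7949.7 to 14567 (median 13389.6) in RM. HS had 6570.5, 7297, 7369, 5463 and 6142, and Sham had 4683 to 6982 (median 5793). RM lay wholly above Sham, with RM 1 far below the other RM libraries at 7949.7, while RM-HS 3 lay just inside the Sham range. Pgd rose in RM-HS, by 0.68 ± 0.18 (limma adjusted p = 0.0041), and in RM, by 1.13 ± 0.14 (limma adjusted p = 2.4e-06). It did not pass in HS (0.20 ± 0.15, limma adjusted p = 0.3, 95% confidence interval -0.12 to 0.51).

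Taldo1 (GSRG0001907, rn6 chromosome 1, 214373972 to 214385895) encodes transaldolase, an enzyme of the non-oxidative pentose phosphate pathway that returns sugar carbons to glycolysis. It differed little between groups, with 14821, 17163 and 15324 in RM-HS and 13313 to 17604 (median 15592) in RM. HS had 12834, 12206, 13895, 11253 and 12224, and Sham had 10823 to 14629 (median 13514). RM-HS lay above every Sham library, RM overlapped Sham through RM 1, and HS lay within the range of Sham. Taldo1 rose by 0.25 ± 0.10 (limma adjusted p = 0.047) in RM-HS and by 0.24 ± 0.08 (limma adjusted p = 0.018) in RM, and did not pass in HS (-0.09 ± 0.09, limma adjusted p = 0.43). The RM-HS call was not given by 20 of 33 alternative settings, the use of Sham 1 and Sham 6 as the controls (limma adjusted p = 0.056) and 13 omissions of 1 library (limma adjusted p up to 0.2, without RM-HS 2) among them. The RM call was lost under upper quartile scaling (0.10, limma adjusted p = 0.32) and without RM 6 (0.20, limma adjusted p = 0.051).

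Me1 (GSRG0031889, rn6 chromosome 8, 94256833 to 94368867) encodes the cytosolic malic enzyme, another source of NADPH. Its values were 11576, 12623 and 11414 in RM-HS and 12638 to 15312 (median 14423) in RM. In HS they were 10792, 11536, 10283, 8628 and 10080.3, and in Sham 10271 to 15337 (median 13070.4). All 3 injured groups overlapped Sham. Me1 fell in HS, by 0.33 ± 0.10 (limma adjusted p = 0.011), and did not pass in RM-HS (-0.11 ± 0.12, limma adjusted p = 0.46) or in RM (0.16 ± 0.09, limma adjusted p = 0.17). Sham 2, 3, 4 and 5 had 11894 to 15337 and Sham 1 and Sham 6 had 11453 and 10271. With Sham 1 and Sham 6 alone as controls Me1 rose in RM (0.40, limma adjusted p = 0.0099) and did not pass in HS (-0.09, limma adjusted p = 0.6).

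**Figure D2:**
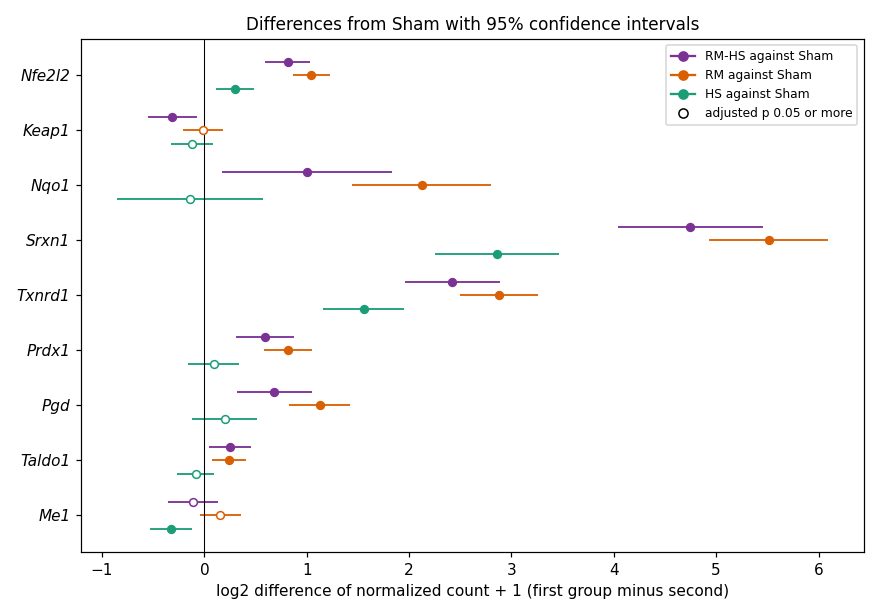
Log2 differences from Sham of each gene in RM-HS, RM and HS (points) with 95% confidence intervals (lines), open where the adjusted p was 0.05 or more. Srxn1 and Txnrd1 lie furthest to the right in all 3 groups, at 5.51 and 2.88 in RM, while Keap1, Taldo1 and Me1 lie close to 0.

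RM against HS asks how the single injuries differ. Of the 9 genes 8 were higher in RM and none was lower, where 23.8% of all rows passed (11.1% higher and 12.6% lower). In 7 of them, all but Taldo1 and Keap1, every RM library lay above every HS library, as in 6.04% of all rows. Srxn1 was higher in RM by 2.66 ± 0.29 (limma adjusted p = 3.2e-06) and Nqo1 by 2.27 ± 0.34 (limma adjusted p = 8.9e-05). Txnrd1 was higher by 1.32 ± 0.19 (limma adjusted p = 5.8e-05), Pgd by 0.93 ± 0.15, Nfe2l2 by 0.74 ± 0.09, Prdx1 by 0.73 ± 0.12, Me1 by 0.48 ± 0.10 and Taldo1 by 0.32 ± 0.09, the last with limma adjusted p = 0.0089. Keap1 did not pass (0.11 ± 0.10, limma adjusted p = 0.43, 95% confidence interval -0.09 to 0.32).

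The first letter of the library names runs partly alongside the groups. All RM-HS and Sham libraries are named R, as are 1 of 6 in RM and 3 of 5 in HS, and the rest are named S. The library RM 1, the one named R, was the lowest RM library in 6 of the 9 genes. It stood at 31253 for Txnrd1, against 54665 to 72169 in RM 2 to 6, and at 1618 for Nqo1, against 2639 to 4644. Srxn1 in RM 1 was 16421, next to 16704 to 27522 in RM 2 to 6. With R libraries alone, RM is represented by RM 1, whose spread is taken from the other groups, and none of the 9 passed between RM and HS. There the log2 difference was 2.25 for Srxn1 (limma adjusted p = 0.12) and 0.33 for Txnrd1 (limma adjusted p = 0.62). Against Sham, Srxn1 (5.18, limma adjusted p = 9.3e-04), Txnrd1 (2.07, limma adjusted p = 0.0019) and Nfe2l2 (0.84, limma adjusted p = 0.024) still passed in RM among libraries named R, and no other of the 9 did. With the name letter as a covariate over all libraries, 8 of the 9 passed between RM and HS and 6 between RM and Sham. That covariate takes the same difference between R and S in every group. For all genes but Keap1 and Me1, however, the means of R and S libraries differed in opposite directions in RM and HS. Txnrd1 averaged 25468 in HS 1 to 3 (R) and 18073 in HS 4 and 5 (S), and Nqo1 835 and 439. For such genes a shared term cannot separate the letter from the group. No source explains the letter.

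RM-HS against HS, and RM-HS against RM, ask what each injury adds to the other. Against HS alone, 5 of the 9 genes were higher in RM-HS and none was lower, where 20.6% of all rows passed in either direction. They were Srxn1 (1.89 ± 0.35, limma adjusted p = 0.0011), Txnrd1 (0.87 ± 0.23, limma adjusted p = 0.013), Nfe2l2 (0.51 ± 0.11, limma adjusted p = 0.003), Prdx1 (0.50 ± 0.14, limma adjusted p = 0.018) and Taldo1 (0.34 ± 0.10, limma adjusted p = 0.025). In 4 of these every RM-HS library lay above every HS library, as in 12.8% of all rows, and for Txnrd1 the ranges overlapped, with RM-HS 3 at 28494 below HS 2 at 29629. Nqo1 (1.15 ± 0.41, limma adjusted p = 0.054), Pgd (0.49 ± 0.18, limma adjusted p = 0.063), Me1 (0.22 ± 0.12, limma adjusted p = 0.22) and Keap1 (-0.19 ± 0.12, limma adjusted p = 0.27) did not pass. The count was 3 without RM-HS 1 and 2 without RM-HS 2, with Srxn1 and Nfe2l2 in both. Without RM-HS 3, Nqo1 (1.66, limma adjusted p = 0.015) and Pgd (0.70, limma adjusted p = 0.022) passed and Taldo1 did not (limma adjusted p = 0.057), and without HS 4 Taldo1 did not (limma adjusted p = 0.061). Nqo1 also passed by edgeR (adjusted p = 0.033) and DESeq2 (adjusted p = 0.01), with a minimum of 50 in 3 libraries, and without HS 1, Sham 1, Sham 2 or RM 1 (limma adjusted p = 0.041 to 0.049 in these). Pgd also passed by DESeq2 (adjusted p = 0.033), with array weights (limma adjusted p = 0.038) and without RM 1 (limma adjusted p = 0.022).

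Against RM alone, none of the 9 genes passed in RM-HS by limma, edgeR or DESeq2, where 1.08% of all rows passed by limma. At an unadjusted p under 0.05, 6 of the 9 did, and 15.8% of all rows. The median log2 difference of the 9 genes was -0.30, beside 8.3e-04 over all rows tested. In 8 of the 9 the estimate was lower in RM-HS, with -1.12 ± 0.40 (limma adjusted p = 0.17) for Nqo1 and -0.76 ± 0.34 (limma adjusted p = 0.28) for Srxn1, and 95% confidence intervals of -1.95 to -0.29 and -1.47 to -0.05. For Txnrd1 the difference was -0.46 ± 0.22 (95% confidence interval -0.92 to 0.01), and for Pgd -0.44 ± 0.18 (-0.81 to -0.08). Both had the other sign among libraries named R, where RM is RM 1 alone, at 0.35 for Txnrd1 and 0.20 for Pgd. The differences there were -0.19 for Nqo1, -0.43 for Srxn1, -0.28 for Me1 and -0.13 for Keap1. For Nfe2l2, Prdx1 and Taldo1 they were -0.03, -0.02 and 0.24. Without RM 1, Pgd passed (-0.57, limma adjusted p = 0.036). All 3 RM-HS libraries had less Me1 than any RM library, at 11414 to 12623 against 12638 to 15312, as happened in the lower direction in 3.44% of all rows. Within RM-HS, RM-HS 3 was the lowest of the 3 in 7 of the 9 genes, while RM-HS 2 was the highest in 6.

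**Figure D3:**
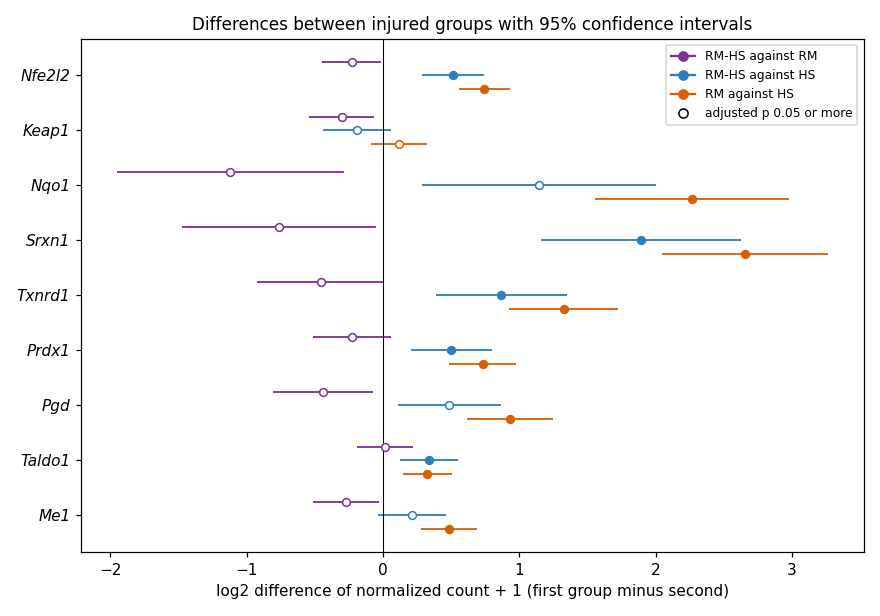
Log2 differences between injured groups with 95% confidence intervals, open where the adjusted p was 0.05 or more. All RM-HS against RM points are open, whereas 8 of the 9 RM against HS points are filled and lie right of 0.

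Departure from additivity is the RM-HS mean plus the Sham mean, less the RM and HS means, on the log2 scale, and asks whether the change in RM-HS equals the sum of the changes in RM and HS. It was below 0 and passed in 4 of the 9 genes, and was above 0 and passed in none, where 31.7% of all rows passed (14.9% above and 16.8% below). Upper quartile scaling turned the balance over all rows round, with 3154 above 0 and 2080 below, against 2376 above 0 and 2678 below. Srxn1 changed by 4.75 in RM-HS, against a sum of 8.37, a departure of -3.62 ± 0.45 (limma adjusted p = 3.2e-05). For Txnrd1 the change was 2.42 against a sum of 4.44, a departure of -2.01 ± 0.29 (limma adjusted p = 1.1e-04). Nfe2l2 departed by -0.53 ± 0.14 (limma adjusted p = 0.0065) and Pgd by -0.64 ± 0.23 (limma adjusted p = 0.04). The Pgd call was lost in 15 of 32 alternative settings, 12 of them omissions of 1 library, among which the smallest size came without RM-HS 3 (-0.43, limma adjusted p = 0.18), and R libraries alone gave -0.11 (limma adjusted p = 0.9). Prdx1 (-0.32 ± 0.18, limma adjusted p = 0.19) and Nqo1 (-0.98 ± 0.53, limma adjusted p = 0.17) did not pass, nor did Keap1, Taldo1 or Me1, which departed by -0.18 ± 0.15, 0.10 ± 0.13 and 0.06 ± 0.15. With the name letter as a covariate 2 passed, Srxn1 (-3.55, limma adjusted p = 0.011) and Txnrd1 (-1.86, limma adjusted p = 0.023), and with Sham 1 and Sham 6 alone Nfe2l2 did not (-0.39, limma adjusted p = 0.06). Among libraries named R none did, nor did any other row (Srxn1 -3.36, limma adjusted p = 0.13).

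**Figure D4:**
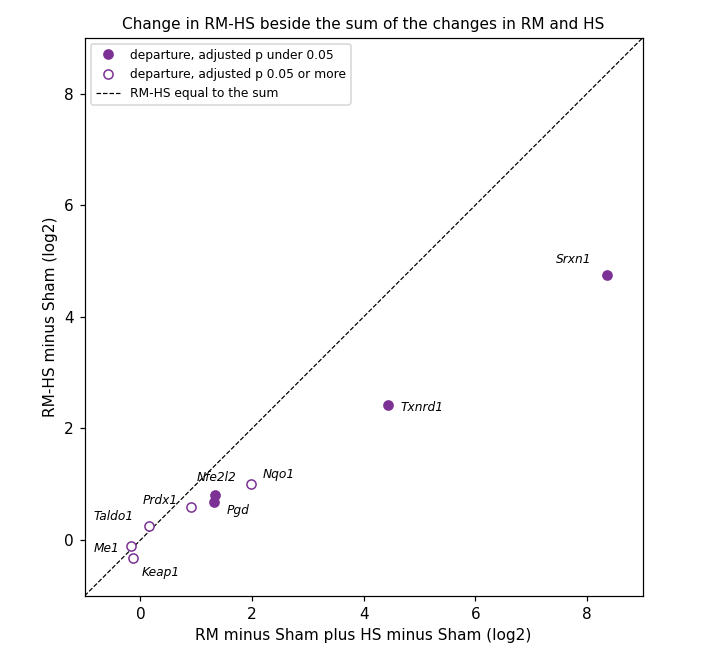
Change in RM-HS against Sham (vertical axis) beside the sum of the changes in RM and HS (horizontal axis), both log2, with the dashed line where they are equal and filled points where the departure passed. Srxn1 (4.75 against 8.37) and Txnrd1 (2.42 against 4.44) lie well below the line, and the other genes lie closer to it.

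Most partners and regulators of NRF2 were higher in the injured groups. Of 12 tested genes in this list (13 listed) 8 rose and none fell in RM-HS, 9 rose and 1 fell in RM, and 9 rose and none fell in HS, with medians of 1.40, 1.48 and 0.83 log2 units. The shares that rose were 66.7%, 75.0% and 75.0%, beside 21.3%, 26.2% and 23.3% of all rows. With Sham 1 and Sham 6 alone as controls 7, 8 and 9 of the 12 passed in either direction. Maff, a small MAF protein that pairs with NRF2 and with its competitors, rose by 3.27 ± 0.27 in RM-HS, 3.89 ± 0.22 in RM and 1.67 ± 0.23 in HS. Another small MAF, Mafg, rose by 1.91 ± 0.14 in RM-HS, 1.92 ± 0.12 in RM and 0.86 ± 0.12 in HS, the order used for the other genes of the lists. Bach1, a repressor that competes with NRF2 for the same elements and is released from DNA by haem, rose by 2.65 ± 0.19, 3.22 ± 0.16 and 1.62 ± 0.16. Gsk3b, a kinase that marks NRF2 for degradation without KEAP1, rose by 1.16 ± 0.13, 1.45 ± 0.11 and 0.97 ± 0.12. In each of these 12 differences the limma adjusted p was 1.6e-05 or less.

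NADPH-making and pentose phosphate genes other than Pgd, Taldo1 and Me1 did not move as one group. Of 16 tested, 5 rose and 5 fell in RM-HS, 5 rose and 8 fell in RM, and 5 rose and 8 fell in HS, with medians of -0.17, -0.19 and -0.08. Among all rows 21.3% rose and 21.0% fell in RM-HS, 26.2% and 26.8% in RM, and 23.3% and 23.2% in HS. When Sham 1 and Sham 6 were the controls, 10, 11 and 7 of the 16 passed in either direction. Tkt, transketolase, which works beside transaldolase, rose by 1.11 ± 0.21 in RM-HS, 1.49 ± 0.17 in RM and 0.60 ± 0.18 in HS. Rpia, ribose 5-phosphate isomerase, rose by 0.95 ± 0.15, 1.19 ± 0.12 and 0.43 ± 0.13. H6pd, the hexose 6-phosphate dehydrogenase of the endoplasmic reticulum, rose by 0.57 ± 0.20, 1.14 ± 0.16 and 0.59 ± 0.17. Mthfd2, a mitochondrial folate enzyme, rose by 2.25 ± 0.36, 2.52 ± 0.29 and 1.32 ± 0.31. These rises passed with limma adjusted p of 0.024 or less. Me3, the mitochondrial malic enzyme, was picked after its values were seen, and fell, with log2 differences of -0.86 ± 0.17, -0.78 ± 0.14 and -0.85 ± 0.14 (limma adjusted p = 4.6e-04 or less).

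Genes of the thioredoxin and peroxiredoxin system other than the 9 passed, in either direction, about as often as all rows did. Of 17 tested genes 5 rose and 3 fell in RM-HS, 4 rose and 4 fell in RM, and 3 rose and 6 fell in HS, with medians of 0.08, -0.01 and -0.22. As shares that rose and fell these were 29.4% and 17.6% in RM-HS, 23.5% and 23.5% in RM and 17.6% and 35.3% in HS, beside 21.3% and 21.0%, 26.2% and 26.8%, and 23.3% and 23.2% of all rows. Sesn3, a sestrin, rose by 1.92 ± 0.29 in RM-HS, 1.90 ± 0.23 in RM and 1.52 ± 0.24 in HS. Sesn2, a stress-induced sestrin, rose by 1.22 ± 0.20, 0.59 ± 0.16 and 1.55 ± 0.17 (for both, limma adjusted p = 0.0049 or less), and was lower in RM than in HS (-0.95 ± 0.17, limma adjusted p = 5.0e-04). Sesn1, a p53-induced sestrin, fell in RM (-1.04 ± 0.18, limma adjusted p = 6.8e-05) and did not pass in RM-HS (-0.39 ± 0.22) or HS (-0.14 ± 0.19). Prdx2, another cytosolic peroxiredoxin, fell in RM (-0.25 ± 0.07, limma adjusted p = 0.0057) and HS (-0.45 ± 0.07, limma adjusted p = 6.7e-05), and did not pass in RM-HS (-0.18 ± 0.09, limma adjusted p = 0.1). Txn1, the thioredoxin that Txnrd1 reduces, was added after its values were seen, and did not pass in RM-HS (0.31 ± 0.16, limma adjusted p = 0.13), RM (0.27 ± 0.13, limma adjusted p = 0.097) or HS (-0.12 ± 0.14, limma adjusted p = 0.53).

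Of 25 tested genes in the list of other NRF2 targets, 12 rose and 2 fell in RM-HS, 17 rose and 1 fell in RM, and 10 rose and 7 fell in HS, with medians of 0.45, 0.54 and 0.07. Over all rows 21.3% rose and 21.0% fell in RM-HS, 26.2% and 26.8% in RM, and 23.3% and 23.2% in HS. With Sham 1 and Sham 6 alone as controls 12, 15 and 10 of the 25 passed in either direction. Ugdh, which makes UDP-glucuronic acid, rose by 1.76 ± 0.22 in RM-HS, 2.40 ± 0.18 in RM and 1.41 ± 0.19 in HS. Abcc2, an apical efflux pump for conjugates, rose by 2.43 ± 0.39, 3.87 ± 0.32 and 3.28 ± 0.33 (for both, limma adjusted p = 6.2e-05 or less). Slc7a11, which imports cystine for glutathione synthesis, rose by 6.76 ± 0.75, 8.26 ± 0.61 and 2.00 ± 0.64. Hmox1, the inducible haem oxygenase, rose by 6.70 ± 0.88, 7.64 ± 0.72 and 2.87 ± 0.76 (for both, limma adjusted p = 0.015 or less), and both were higher in RM than in HS, by 6.26 ± 0.64 (limma adjusted p = 1.6e-06) for Slc7a11 and 4.76 ± 0.76 (limma adjusted p = 1.5e-04) for Hmox1. In RM-HS against RM 2 genes of the list (8.0%) passed, beside 1.08% of all rows, both lower and both picked after their values were seen. They were Gclc (-0.81 ± 0.17, limma adjusted p = 0.029) and Gclm (-0.94 ± 0.19, limma adjusted p = 0.026), the subunits of the enzyme that starts glutathione synthesis. With the name letter as a covariate neither passed, nor did any other row. In the other 3 lists no gene passed in that comparison by limma, edgeR or DESeq2, and at an unadjusted p under 0.05 there were 4 of 12 NRF2 partners, 5 of 17 thioredoxin system genes and 2 of 16 NADPH supply genes, beside 15.8% of all rows.

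**Figure D5:**
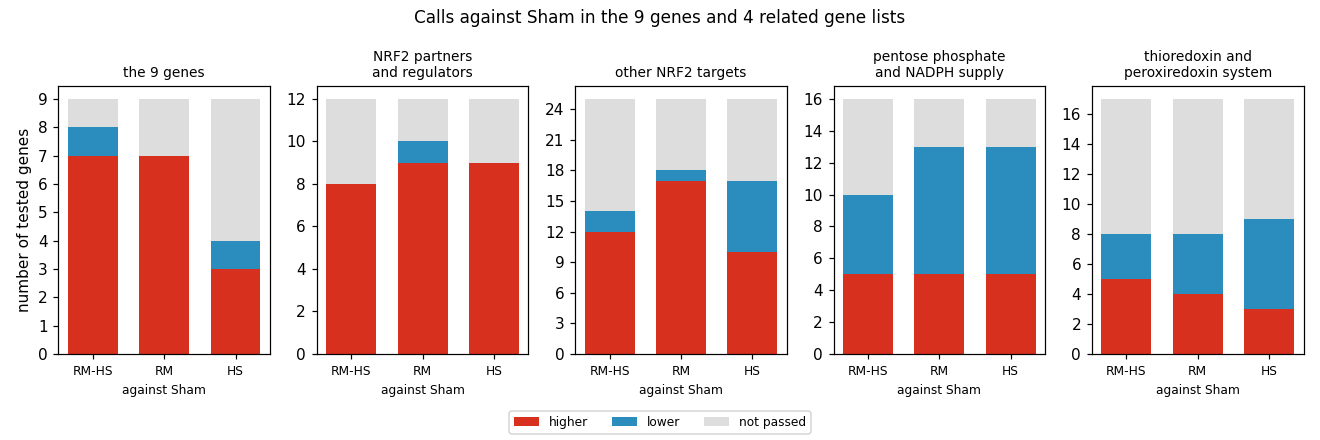
Numbers of tested genes higher, lower or not passed against Sham in the 9 genes and in 4 related lists, for RM-HS, RM and HS. The 9 genes and the NRF2 partners are mostly higher in RM-HS and RM (7 of 9 and 8 or 9 of 12), whereas the NADPH and thioredoxin lists hold as many falls as rises or more, except for thioredoxin genes in RM-HS (5 rises and 3 falls).

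The genes whose pattern over the 20 libraries was most like that of each of the 9 were found among 11166 genes by the root mean square difference of centred log2 values. For Txnrd1 the closest were Bach1 (0.24 log2 units) and Ifrd1 (0.28), beside a root mean square deviation of 1.21 of Txnrd1 from its own mean. The closest to Srxn1 were Zfand2a, an arsenite-inducible gene (0.57), and Myc (0.59), beside 2.30. Zfand2a averaged 30898 in RM-HS, 42834 in RM, 4294 in HS and 646 in Sham. Prdx1 was closest to Ftl1, the ferritin light chain (0.18), and Cnbp (0.18), beside 0.40. Nqo1 was closest to Pklr, a pyruvate kinase (0.48), and Afap1l2 (0.52), beside 1.12. For Pgd they were Tacc2 and Ypel5 (0.18 and 0.20, beside 0.53), and for Nfe2l2 Nmd3 and Ubxn4 (0.16 and 0.16, beside 0.45). For Keap1, Taldo1 and Me1, whose own deviations were 0.18, 0.19 and 0.23, the closest were Unc119b and mrpl24, Rpl7 and Psmb4, and Rnf14 and Pqbp1.

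Markers of infiltrating and blood cells moved with some of these groups. The summed level of 7 neutrophil markers was 8087 to 13187 in RM-HS, 5297 to 21124 in RM, 2041 to 8384 in HS and 917 to 4899 in Sham, and 7 of 7 were higher in RM-HS and RM, and 2 of 7 in HS. The 6 macrophage markers summed to 3614 to 4745 in RM-HS, 4344 to 5764 in RM, 3032 to 3746 in HS and 3404 to 7924 in Sham, and 1 of 6 was higher and 2 lower in RM-HS, none in either direction in RM, and 3 lower in HS. The 4 red cell markers summed to 372684 to 1075528 in RM-HS, 366185 to 996715 in RM, 83407 to 467811 in HS and 214732 to 1306083 in Sham, and 1 of 4 was higher in RM and none in RM-HS or HS. The Sham value of 1306083 was that of Sham 2. All other Sham libraries had 214732 to 362262, below every RM-HS and RM library. Between RM and HS, 4 of 4 red cell, 5 of 7 neutrophil, 3 of 6 macrophage and 3 of 5 endothelial markers were higher in RM and none was lower. None of the neutrophil, macrophage or red cell markers was at 0 throughout a group. The part of these markers in the differences of the 9 genes was not tested.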

How the data were processed

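RNA of 20 rat kidney samples was sequenced. The submitters' processing notes name STAR and the rn6 build for alignment, featureCounts in Subread 1.5.0 for counting, DESeq2 for normalization, and FastQC 0.11.2, Picard 1.119 and SAMtools 1.0. The deposited signal values are the authors' DESeq2-normalized counts, per the submitters' processing notes. The sources used here do not say whether counting used the strand. Dividing by each library's smallest step returned whole reads for 100% of values, to within 0.1 read.

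Groups follow the disease label, and replicate numbers follow listing order. Of 34681 rows, the 15954 that reached 10 or more in 3 or more libraries entered 1 limma fit (version 3.58.1, R 4.3.3, trended variance) of log2(value + 1) on the 4 groups, with 7 contrasts and Benjamini-Hochberg adjustment over all rows in each. The fit was tested on simulated data. Alternatives were pseudocounts of 0.5 and 8, other filters and scalings, only the groups compared, the name letter as covariate or R libraries alone, array weights, omission of each library, Sham 1 and Sham 6 alone, and counts recovered as whole reads tested with DESeq2 1.42.0 and edgeR 4.0.16.

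The genes, lists, alternatives and controls were chosen with earlier results of these data known. Up to 4 genes of each list are named, by smallest adjusted p, and others as stated. Promoters are from RefSeq (GRCr8), and gene coordinates are those of the file (rn6).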

Additional observations from a re-analysis of the deposited data

Results flagged for a closer look

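Of 27 sets of one gene in one group of 5 or 6 libraries, 3 had a library far from the others, where chance alone would give about 1 in 20. Pgd in RM 1 stood at 7949.7, as the lowest RM library. Prdx1 in HS 4 stood at 9749, below the other HS libraries. Txnrd1 in Sham 5 stood at 8796, above the other Sham libraries.

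In 4 of the 9 genes the effect of RM differed with and without HS, by the test of the departure from additivity, which 31.7% of all rows passed (14.9% above 0 and 16.8% below). Of these 4, Pgd was lost in 15 of 32 alternative settings. Nfe2l2 was lost with the name letter as a covariate (limma adjusted p = 0.19) and with Sham 1 and Sham 6 alone as controls (limma adjusted p = 0.06). The departures were -3.62 ± 0.45 for Srxn1, -2.01 ± 0.29 for Txnrd1, -0.64 ± 0.23 for Pgd and -0.53 ± 0.14 for Nfe2l2 on the log2 scale, and limma adjusted p was 3.2e-05, 1.1e-04, 0.04 and 0.0065.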

How the results depend on the processing

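Of 63 results (9 genes in 7 contrasts) 36 passed, and none of these changed sign under any of the alternatives. Of the 36, 11 passed under every alternative, and they were Srxn1 and Txnrd1 in RM-HS, RM and HS against Sham, Nfe2l2 in RM-HS and RM against Sham, Prdx1 and Pgd in RM-HS against Sham, and Srxn1 in RM-HS against HS. Counts of the 9 genes passing changed by over 1.5 times as follows, and the cause was not tested. Among libraries named R, which leave 1 RM library, 3 passed in RM against Sham, 2 in HS against Sham, 0 in RM against HS, 1 in RM-HS against HS and 0 for additivity. With the name letter as covariate 2 passed for additivity. With Sham 1 and Sham 6 alone 2 passed in HS against Sham. With only the groups compared 5 passed in RM-HS against Sham. Leaving out 1 library gave 6 to 7 in RM against Sham, 4 to 4 in HS against Sham, 5 to 8 in RM-HS against Sham, 8 to 8 in RM against HS, 0 to 1 in RM-HS against RM, 2 to 7 in RM-HS against HS and 3 to 4 for additivity. Over all rows the counts passing also moved by over 1.5 times. For RM against Sham the count was 8455, then 5250 on Sham 1 and Sham 6 alone, 4551 given the name letter and 766 among libraries named R. On Sham 1 and Sham 6 alone it was 4105 against 7410 for HS against Sham, 4347 against 6749 for RM-HS against Sham, and 3151 against 5054 for additivity, which gave 617 given the name letter and 0 among libraries named R. Among libraries named R it was 195 against 3791 for RM against HS and 1203 against 3287 for RM-HS against HS, which gave 2015 without RM-HS 3. For RM-HS against RM it was 173 by limma, 42 with only the groups compared, 333 with array weights, 499 by DESeq2, 0 given the name letter or R libraries alone, and 21 (without RM-HS 1) to 480 (without RM 1) on leaving out 1 library. No paired analysis was possible because the labels carry no replicate numbers. No effect of depth on these results was tested.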

Other observations

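The row of Eid3 overlaps that of Txnrd1 by 1323 bases in rn6, and its level went with that of Txnrd1. It averaged 117 in RM-HS, 140.1 in RM, 17.4 in HS and 5.45 in Sham. Whether the counting assigned reads of Txnrd1 to it was not tested. RefSeq also lists 2 pseudogenes named for Taldo1 and 1 named for Pgd.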
